A study of Mus musculus with 32 samples.

Results

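Inhibitory receptors of myeloid cells and the ligands that engage them were followed in the spinal cord of mice that carry the human SOD1 gene with the G93A mutation, a model of amyotrophic lateral sclerosis. The 8 genes are the ligands Cd200 and Cd47 and the receptors Cd200r1, Sirpa, Pirb, Lilrb4a, Cd33 and Cd200r4, found by symbol among the 42524 genes of the count table. They were chosen by their levels across the 8 groups, with earlier results of these data known, so every level and difference given for them is a description and lends no support to the choice. Spinal cord RNA of 32 mice was sequenced, 4 mice in each group. The groups were WT untreated, WT OKN-007, G93A untreated and G93A OKN-007 at 90 days, and the same 4 at 155 days, with OKN-007, a nitrone, given in the drinking water. The G93A mice were of the B6-Tg(SOD1-G93A)1Gur/J line and the WT mice their C57BL/6J littermates without the transgene, and mostly females were used. The study's text places the early age a few days later than the labels do, and the dose given to the sequenced mice is not named, so the labelled ages are used and no dose is assigned.

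Myeloid cells, which in the spinal cord are chiefly microglia, carry paired receptors that restrain or promote their activity. Most inhibitory members hold a motif in their tail that recruits phosphatases such as those encoded by Ptpn6, Ptpn11 and Inpp5d, while CD200R1 works through the adaptors Dok1 and Dok2. CD200 and CD47 are displayed on neurons and many other cells and engage CD200R1 and SIRPα on the myeloid side, a contact that holds microglia quiet and limits engulfment. PirB binds class I MHC and inhibitors of axon growth in myelin, LILRB4 is a related immunoglobulin receptor, and CD33 is a lectin for sialic acid whose mouse form differs in its tail from the human protein. Cd200r4 stands apart by function, since it encodes an activating relative of CD200R1 that signals through the adaptor Tyrobp.

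Gene counts summed to 19701722 to 30138257 per mouse (median 26658755), and 3 counts in the smallest library correspond to 0.152 CPM, a floor that covers counting error only. CPM is a count scaled to its library's total with edgeR's TMM factors, and it is not corrected for gene length. Mouse Sod1 lay between 234 and 392 CPM over all mice, and the human transgene has no row of its own and was not analysed here. All 10 microglia markers were above 0 in every group, and their summed level was 331 to 433 CPM in the WT mice and 1556 to 2874 CPM in the G93A mice at 155 days. Summed liver genes, which should be near absent from spinal cord, reached 187 CPM in G93A untreated replicate 12, 130 CPM in G93A OKN-007 replicate 15 (both at 155 days) and 77.3 CPM in WT OKN-007 replicate 6 at 90 days. The mean log2 level of the caudal Hox genes, which follow the position along the cord, was 5.08 to 5.61 in WT and 2.67 to 4.95 in G93A mice at 155 days. These ranges did not overlap, so position and genotype cannot be told apart at that age. The fits below that use this level as a covariate do not separate them.

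At 155 days the 6 receptors were higher in G93A than in WT mice and the 2 ligands were lower, whether or not the mice had received OKN-007. In untreated mice all 8 genes passed an adjusted p of 0.05 (edgeR's quasi-likelihood test, two-sided, Benjamini-Hochberg adjusted over 18675 genes), 6 higher and 2 lower, where 21.3% of all genes tested were called higher and 18.2% lower. In OKN-007 treated mice the counts were again 6 higher and 2 lower, beside 23.3% and 18.2% of all genes. Of the 6, Cd200r1, Lilrb4a and Cd200r4 passed the low count filter through their levels in the G93A mice, so their calls are no support. The median log2 fold change of the 8 genes was 2.48 in untreated and 2.85 in treated mice, and that of all genes tested was 0.00 and 0.02. In bulk tissue a larger number of cells of a type and more RNA per cell cannot be told apart, which holds for every difference below. Nothing in the labels says how the mice of a group were sampled beyond their being separate samples, so the p-values measure the spread between these samples.

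**Figure D1:**
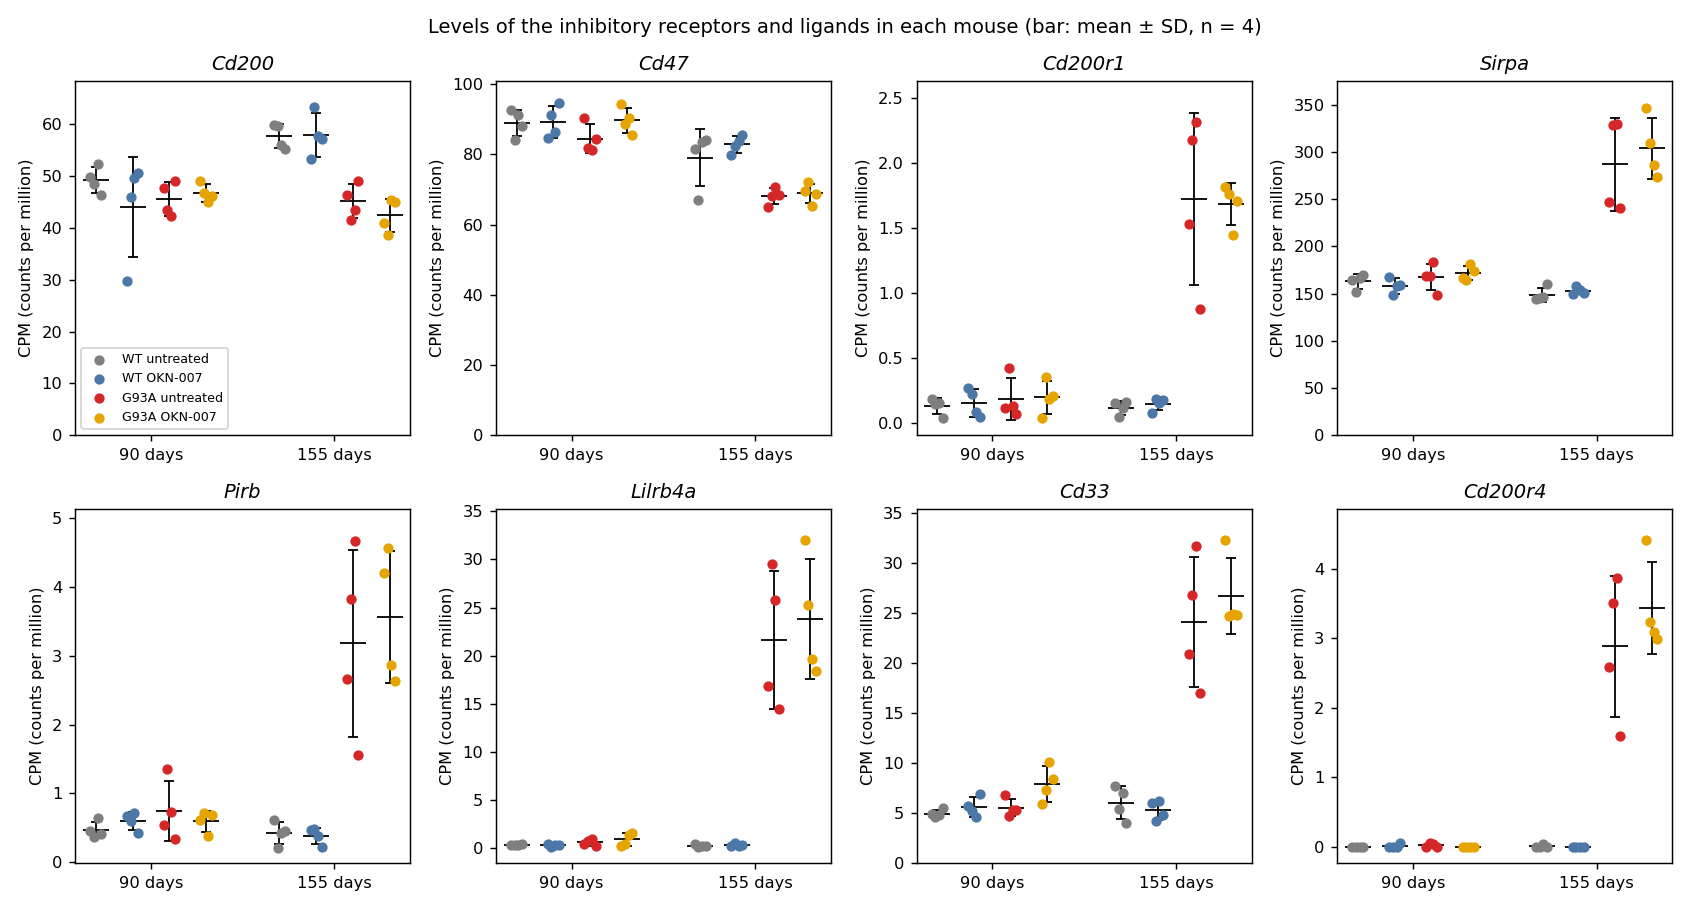
CPM (vertical axis, linear, 1 panel per gene) in each mouse of the 8 groups, by age along the horizontal axis and by genotype and treatment in colour; black bars give mean ± SD of 4 mice. The 6 receptors are high in the G93A groups at 155 days. At 90 days most of their levels lie near those of WT mice. There Cd33 and Lilrb4a reach 10.1 and 1.53 CPM in G93A OKN-007 mice, against at most 6.89 and 0.407 CPM in WT OKN-007 mice. At 155 days Cd200 and Cd47 lie lower in G93A than in WT mice, apart from 1 WT untreated mouse at 66.9 CPM of Cd47.

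Among the ligands, Cd200 (ENSMUSG00000022661, chr16:45382135-45409053, minus strand) encodes the surface glycoprotein read by CD200R1. Its level at 155 days was 59.8, 59.6, 56 and 55.3 CPM in WT untreated mice and 46.3, 41.6, 43.5 and 49.1 CPM in G93A untreated mice. In OKN-007 treated mice it was 53.2, 63.4, 57.8 and 57.2 CPM in WT and 40.9, 38.6, 45.3 and 44.9 CPM in G93A. Every G93A mouse was below every WT mouse of the same treatment. The log2 fold change was -0.31 ± 0.0758 (SE, adjusted p = 0.00342) in untreated and -0.37 ± 0.0758 (adjusted p = 0.000604) in treated mice, and with the caudal Hox level as a covariate the untreated call was lost, at -0.28 with an adjusted p of 0.0525. At 90 days the 4 groups spanned 29.8 to 52.3 CPM and overlapped. The lowest of these, 29.8 CPM, was WT OKN-007 replicate 5, whose group mates were at 46 to 50.6 CPM. Mean levels were 49.3 ± 2.5 (SD, n = 4) at 90 and 57.7 ± 2.34 CPM at 155 days in WT untreated mice, and 45.6 ± 3.26 and 45.1 ± 3.27 CPM in G93A untreated mice. The lower level of Cd200 in G93A mice at 155 days therefore stood beside a WT level that was higher than at 90 days, while the G93A untreated means at the 2 ages differed by less than their SD. In G93A OKN-007 mice the means were 46.6 ± 1.71 CPM at 90 and 42.4 ± 3.23 CPM at 155 days, further apart than either SD. No test was made of a level between ages. Other levels differed between the ages too in WT untreated mice. The median sum of the neuron markers was 6164 CPM at 90 and 7782 CPM at 155 days. That of the oligodendrocyte markers was 36053 and 21225 CPM. The part of tissue composition in the Cd200 levels at the 2 ages was not tested.

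Cd47 (ENSMUSG00000055447, chr16:49800533-49915010, plus strand) encodes the ligand of SIRPα. At 155 days it was at 81.5, 66.9, 83.4 and 84.2 CPM in WT untreated mice and at 65.1, 68.1, 70.6 and 68.4 CPM in G93A untreated mice. Replicate 2 of the WT mice, at 66.9 CPM, lay within the G93A range, so these groups overlapped. The log2 fold change was -0.17 ± 0.0647 (SE), and its adjusted p of 0.046 was close to the threshold. It was not past the threshold in 15 of the 16 fits that left out 1 mouse (all but that without WT replicate 2), in the fit of the compared groups alone (adjusted p = 0.124), without the low count filter (0.225) or with the caudal Hox covariate (0.262), whereas without WT replicate 2 it was -0.22 with an adjusted p of 0.00394. In treated mice the levels were 79.8, 82.4, 83.7 and 85.4 CPM in WT and 69.6, 72, 65.4 and 68.8 CPM in G93A, with no overlap. That difference was -0.19 ± 0.0646 (adjusted p = 0.0232) and was lost with the covariate (0.124), without the filter (0.112), and without WT OKN-007 replicate 7 or 8 or G93A OKN-007 replicate 15, with adjusted p of up to 0.0619. At 90 days Cd47 ranged from 81.2 to 94.6 CPM over all 16 mice, with overlapping groups.

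Both ligands are expressed by neurons, and neuron markers moved with them. All 6 neuron markers were called lower in G93A mice at 155 days, untreated and treated, beside 18.2% of all genes in each. Their median log2 fold change was -0.52 in untreated and -0.59 in treated mice. Their summed level was 7078 to 8837 CPM in WT and 3179 to 5142 CPM in G93A mice. Endothelial markers, which mark another cell that displays CD200, had a median log2 fold change of -0.21 in untreated and -0.32 in treated mice, and their summed level in untreated mice was 164 to 228 CPM in WT and 167 to 206 CPM in G93A. The part of either cell type in the ligands' levels was not tested.

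Sirpa (ENSMUSG00000037902, chr2:129592835-129632228, plus strand) encodes the CD47 receptor, which neurons display as well as myeloid cells. It was the most abundant of the receptors, at 144, 145, 146 and 160 CPM in WT untreated and 247, 329, 330 and 241 CPM in G93A untreated mice at 155 days. In treated mice it was 150, 158, 154 and 151 CPM in WT and 347, 309, 286 and 273 CPM in G93A. The genotypes did not overlap. The ratio of mean CPM was 1.93 in untreated and 1.98 in treated mice, the smallest ratio of the 6 receptors, while the difference of means, 138 and 150 CPM, was the largest. The log2 fold changes were 0.99 ± 0.0966 (adjusted p = 1.70e-07) and 1.06 ± 0.0967 (adjusted p = 5.91e-08). At 90 days the 16 mice lay between 148 and 183 CPM, in overlapping groups.

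Cd200r1 (ENSMUSG00000022667, chr16:44765736-44794978, plus strand) encodes the receptor of CD200. It was rare in WT cord, with 13 counts over the 4 WT untreated mice at 155 days and levels of 0.152, 0.0426, 0.117 and 0.163 CPM. G93A untreated mice held 1.53, 2.18, 2.32 and 0.878 CPM, and the mean was 14.6 times that of WT. Treated mice had 0.0769 to 0.185 CPM in WT and 1.45 to 1.82 CPM in G93A, a ratio of means of 11.4. The lowest G93A mouse was above the highest WT mouse in each case, and the log2 fold changes were 3.81 ± 0.373 (adjusted p = 1.80e-07) and 3.54 ± 0.359 (adjusted p = 2.43e-07). With such WT counts the size of the fold is less well fixed than its direction. At 90 days Cd200r1 was at 0.42 CPM or less in every mouse and did not pass the low count filter.

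Pirb (ENSMUSG00000058818, chr7:3711409-3720391, minus strand) lies beside its near-identical activating relatives, the Pira genes, and reads may have been split among them. It was at 0.609, 0.213, 0.428 and 0.458 CPM in WT untreated and 2.66, 3.83, 4.67 and 1.56 CPM in G93A untreated mice at 155 days. With OKN-007 it was 0.462, 0.481, 0.375 and 0.216 CPM in WT and 4.21, 4.56, 2.86 and 2.63 CPM in G93A. All G93A mice exceeded all WT mice at this age. Ratios of means were 7.45 and 9.3, and log2 fold changes 2.91 ± 0.352 (adjusted p = 2.72e-06) and 3.28 ± 0.356 (adjusted p = 5.58e-07). At 90 days the groups overlapped between 0.344 and 1.35 CPM, the highest being G93A untreated replicate 10.

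Lilrb4a (ENSMUSG00000112148, chr10:51490956-51496611, plus strand) encodes an inhibitory immunoglobulin receptor and had the largest ratio of means among the genes with more than 3 counts in WT. WT untreated mice at 155 days held 0.456, 0.0426, 0.155 and 0.196 CPM, and G93A untreated mice 16.8, 29.5, 25.8 and 14.4 CPM. In treated mice the levels were 0.154, 0.555, 0.225 and 0.288 CPM in WT and 32, 25.3, 19.6 and 18.4 CPM in G93A. Every G93A mouse thus held over 10 CPM and every WT mouse under 1 CPM. The ratio of means was 102 in untreated and 78 in treated mice, and the log2 fold changes were 6.65 ± 0.371 (adjusted p = 1.32e-10) and 6.33 ± 0.35 (adjusted p = 8.36e-11). Its neighbour Lilrb4b, which lacks the inhibitory tail and shares much of the sequence, was also higher, rising from 0.193 ± 0.0509 CPM in WT to 7.42 ± 4.31 CPM in G93A untreated mice (SD, n = 4; log2 fold change 5.29, adjusted p = 7.56e-08), so the split of reads between this pair is uncertain. Lilrb4b too passed the low count filter through its levels in the G93A mice, so its call is no support.

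Cd33 (ENSMUSG00000004609, chr7:43524216-43544428, minus strand) was detected in all mice. Its level at 155 days was 7.72, 5.36, 6.96 and 4.02 CPM in WT untreated and 20.9, 26.8, 31.7 and 17 CPM in G93A untreated mice, and 5.96, 4.18, 6.18 and 4.78 CPM against 32.3, 24.7, 24.9 and 24.8 CPM in treated mice. The genotypes were apart by more than their spread. Ratios of means were 4.01 and 5.06, with log2 fold changes of 2.05 ± 0.198 (adjusted p = 1.51e-07) and 2.41 ± 0.2 (adjusted p = 1.58e-08).

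Cd200r4 (ENSMUSG00000062082, chr16:44811733-44839150, plus strand), the activating relative, had the clearest on and off pattern of the 8 genes. Outside the G93A groups at 155 days, 20 of 24 mice had 0 counts and the other 4 had 1 count each. G93A untreated mice at 155 days held 2.58, 3.5, 3.86 and 1.59 CPM (298 counts in all) and G93A OKN-007 mice 4.41, 3.23, 3.09 and 2.99 CPM (390 counts). WT untreated mice had 1 count in all, which gives a ratio of 297 with an exact 95% interval of 52.9 to 11779 for counting error only. WT OKN-007 mice had none, and against 3 counts in the smallest of their libraries the G93A OKN-007 mean was at least 29.7-fold higher. The adjusted p was 2.12e-08 in untreated and 6.36e-09 in treated mice, and the fitted fold, which depends on a prior count, is not given. Cd200r1, Cd200r4 and their relatives share sequence, so their counts may be shared in part.

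The sequences before the start sites of Pirb, Cd33 and Cd200r4 are shown because these genes rose together from low WT levels and PU.1, the main transcription factor of the myeloid lineage, binds purine-rich sites around a GGAA core. Each window runs from 250 bases before to 50 after the start in RefSeq on GRCm38.p6, and matches to GAGGAA on either strand are in capitals. Of the 8 genes, 5 had a window in that table. The RefSeq start sites of Cd33, Cd200r4 and Cd47 lie inside the GENCODE M21 bounds given above, not at their outer ends, so their windows describe the RefSeq start only.
Pirb promoter, chr7:3720333-3720632, minus strand: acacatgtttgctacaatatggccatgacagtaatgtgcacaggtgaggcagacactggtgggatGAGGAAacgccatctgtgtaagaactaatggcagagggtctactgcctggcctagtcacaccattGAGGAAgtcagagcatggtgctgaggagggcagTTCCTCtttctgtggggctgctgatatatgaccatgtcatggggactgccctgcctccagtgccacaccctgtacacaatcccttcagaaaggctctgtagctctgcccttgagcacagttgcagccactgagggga
Cd33 promoter, chr7:43533122-43533421, minus strand: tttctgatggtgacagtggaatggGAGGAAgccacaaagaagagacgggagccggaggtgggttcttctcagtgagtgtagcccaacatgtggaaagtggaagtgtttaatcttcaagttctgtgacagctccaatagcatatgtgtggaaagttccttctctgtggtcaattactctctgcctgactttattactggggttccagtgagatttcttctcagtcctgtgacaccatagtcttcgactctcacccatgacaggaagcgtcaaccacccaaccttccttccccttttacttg
Cd200r4 promoter, chr16:44820478-44820777, plus strand: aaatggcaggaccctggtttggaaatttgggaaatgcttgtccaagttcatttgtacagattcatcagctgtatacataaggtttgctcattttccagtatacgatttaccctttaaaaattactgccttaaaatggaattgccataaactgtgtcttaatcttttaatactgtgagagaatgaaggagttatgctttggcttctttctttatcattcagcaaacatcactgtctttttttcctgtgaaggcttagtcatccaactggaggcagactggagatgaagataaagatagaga
The Pirb window held 3 matches, 185 and 120 bases before the start on the gene's strand and 87 before it on the other, the Cd33 window held 1, 226 bases before the start, and the Cd200r4 window held 0. Of the ligands, which were lower in G93A mice, the Cd200 window held 1 match, 23 bases after the start, and the Cd47 windows held 0. Of 32851 promoter windows of 300 bases, 28.3% held at least 1 match. A match describes letters in the window and does not mark a bound site.

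**Figure D2:**
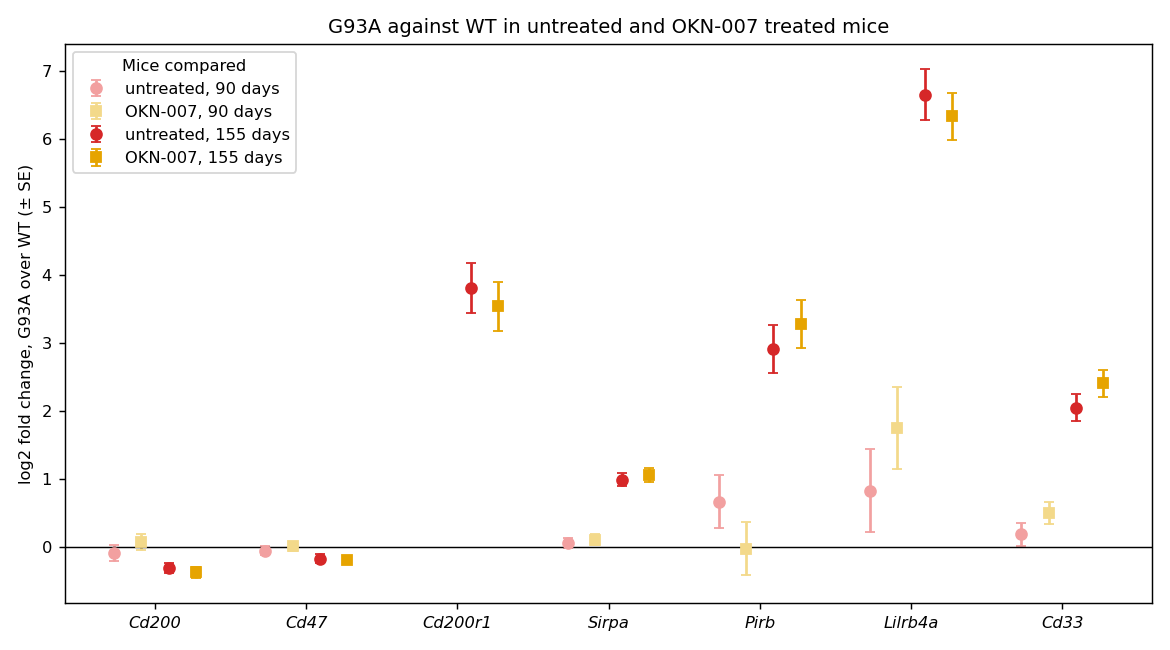
log2 fold change of G93A over WT (vertical axis, ± SE from edgeR) for 7 of the 8 genes, in untreated (circles) and OKN-007 treated mice (squares) at 90 days (pale) and 155 days (dark); Cd200r4 is left out because WT mice held at most 1 count, and Cd200r1 was not tested at 90 days. At 155 days the changes in untreated and treated mice lie close to each other for each gene, from -0.37 for Cd200 to 6.65 for Lilrb4a.

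The order of the genes by level per length also differed between genotypes. In WT untreated mice at 155 days the mean CPM per kilobase of exon (GENCODE M21 lengths) was 30.3 for Sirpa, 17.4 for Cd200, 12.6 for Cd47, 0.774 for Cd33, 0.0954 for Pirb, 0.0407 for Lilrb4a, 0.0354 for Cd200r1 and 0.00475 for Cd200r4. In G93A untreated mice it was 58.4 for Sirpa, 13.6 for Cd200, 10.8 for Cd47, 4.14 for Lilrb4a, 3.1 for Cd33, 1.41 for Cd200r4, 0.711 for Pirb and 0.516 for Cd200r1. Lilrb4a and Cd200r4 thus moved up past genes that exceeded them in WT mice. In the G93A order, Lilrb4a and Cd33 (SD 1.38 and 0.835) and Pirb and Cd200r1 (SD 0.304 and 0.197) did not differ beyond their spread.

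The mice of a G93A group did not carry equal levels. At 155 days G93A untreated replicate 12 was the lowest of its group for all 6 receptors and replicate 11 the highest for 5. Their summed microglia markers, 1556 and 2874 CPM, were likewise the lowest and the highest of the group, and replicate 12 was the mouse with 187 CPM of liver genes. Without replicate 12 the untreated log2 fold changes were 6.81 for Lilrb4a, 4.03 for Cd200r1, 3.14 for Pirb, 2.19 for Cd33 and 1.06 for Sirpa, each larger than with it and past the threshold. In the G93A OKN-007 group replicate 13 was the highest for 5 of the 6 receptors and had the highest microglia sum, 2392 CPM, while replicate 16 was the lowest for 4 and had the lowest sum, 1900 CPM.

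Set against the microglia markers, the genes separated. Each gene's log2(CPM + 0.5) minus the mean of the 10 markers on the same scale was compared between genotypes as a description, with no test. At 155 days all 10 markers were called higher in untreated and in treated G93A mice, beside 21.3% and 23.3% of all genes. The markers themselves were 2.10 (untreated) and 2.30 (treated) log2 units higher in G93A mice. Relative to them Lilrb4a was 2.83 higher in G93A untreated mice (from -5.05 ± 0.42 to -2.22 ± 0.16, mean ± SD, n = 4) and 2.60 higher in treated mice, a size that rested on the pseudocount (4.09 and 3.59 with 0.1 CPM, 1.38 and 1.28 with 2 CPM) while its direction did not. The ratio of Cd33 was -1.87 ± 0.35 in WT and -2.05 ± 0.12 in G93A untreated mice, a difference smaller than the SD in WT mice. Sirpa differed by -1.17 and -1.33 log2 units, falling behind the markers from 2.69 ± 0.20 to 1.52 ± 0.11 in untreated mice, although its CPM was higher. Cd200 and Cd47 differed by -2.45 and -2.31 in untreated mice. Neurons also express Sirpa and the 2 ligands, so for these genes the ratio is not a level per microglial cell. For the rare genes the pseudocount set the sign: in untreated mice Cd200r1 was -0.30, Pirb -0.18 and Cd200r4 0.58 with 0.5 CPM, 0.88, 0.45 and 2.57 with 0.1 CPM, and -1.19, -0.93 and -0.73 with 2 CPM. No direction relative to microglia is therefore given for these 3 genes. Without P2ry12, Tmem119 and Cx3cr1, which mark resting microglia, the difference in untreated mice was 2.35 for Lilrb4a, -0.67 for Cd33 and -1.65 for Sirpa.

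**Figure D3:**
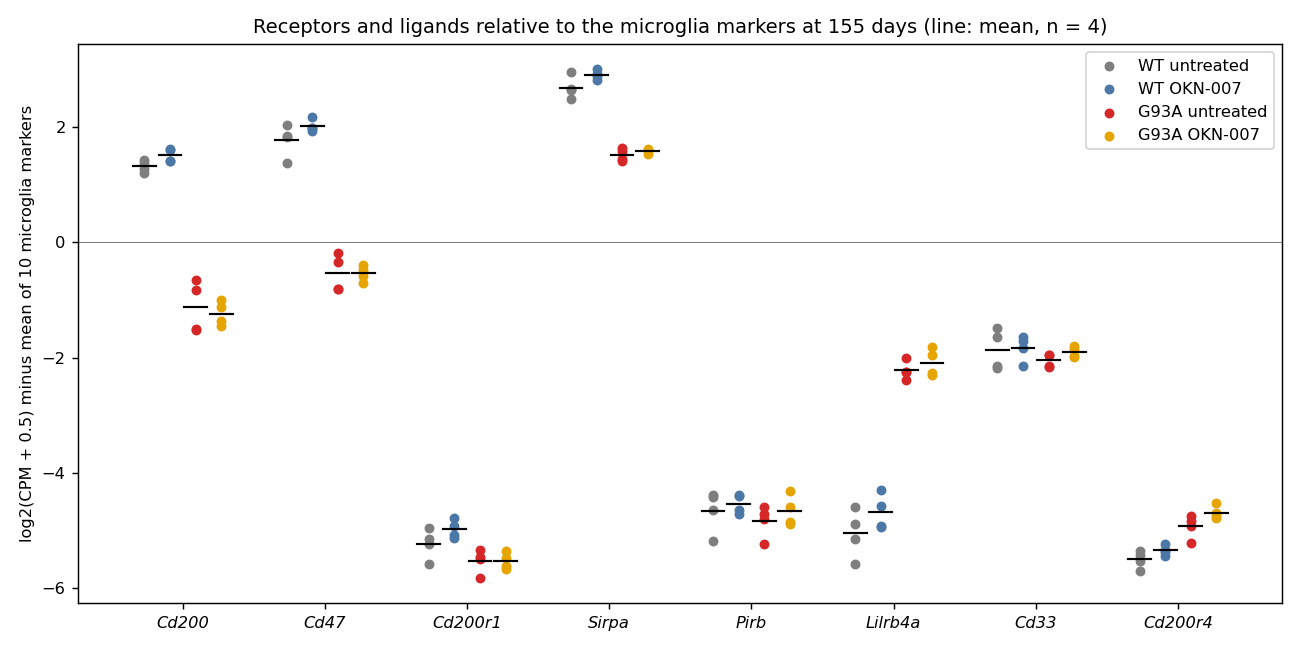
log2(CPM + 0.5) of each gene minus the mean of 10 microglia markers (vertical axis, log2 units) in each mouse at 155 days, by gene along the horizontal axis and by group in colour, with black lines at the means of 4 mice. Lilrb4a lies higher in the G93A groups, Cd33 lies at a similar height in all 4 groups, and Sirpa, Cd200 and Cd47 lie lower in the G93A groups.

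Markers of neutrophils and B cells were low in both genotypes, and some of those of border macrophages and monocytes were higher in G93A mice. At 155 days the 4 neutrophil markers summed to 0.0719 to 1.51 CPM and the 3 B cell markers to 0.0359 to 0.538 CPM over WT and G93A mice, and 1 of these 7 genes passed the low count filter and was not called. The 4 T and NK cell markers summed to 0.111 to 0.777 CPM in WT and 0.636 to 1.15 CPM in G93A mice, with 1 gene, Cd8a, called higher. Cd8a passed the low count filter through its levels in the G93A mice, so its call is no support. The 7 border macrophage and monocyte markers summed to 2.18 to 3.85 CPM in WT and 5.47 to 10.2 CPM in G93A mice. Of 5 tested genes 2 were called higher in untreated and 3 in treated mice, beside 21.3% and 23.3% of all genes. Ms4a7 moved most among them, from 0.074 ± 0.0547 to 2.97 ± 1.19 CPM in untreated and from 0.0477 ± 0.0729 to 4.24 ± 1.16 CPM in treated mice (SD, n = 4), levels in G93A mice like those of Pirb and Cd200r4. Cd163 and Ccr2 were called in neither set (log2 fold changes 0.31 and 1.52 in untreated, 0.16 and 0.85 in treated mice). Mrc1 was called only in treated mice (0.77, against 0.52 in untreated mice). Pf4 was called in both sets, with log2 fold changes of 1.39 in untreated and 1.04 in treated mice. Ms4a7 and Pf4 passed the low count filter through their levels in the G93A mice, so their calls are no support. The part of border macrophages in the receptors' levels was not tested.

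OKN-007 did not move any of the 8 genes past the threshold. At 155 days 0 of 8 were called in G93A mice, where the log2 difference between OKN-007 and untreated mice ran from -0.08 for Cd200 to 0.27 for Cd200r4, and edgeR called 0% of all genes (755 had an unadjusted p under 0.05, and DESeq2 called 0). The 95% interval of the difference, taken from its SE, was -0.28 to 0.59 for Lilrb4a, -0.20 to 0.51 for Cd33, -0.10 to 0.28 for Sirpa, -0.23 to 0.07 for Cd200 and -0.10 to 0.15 for Cd47, and it was widest for the rare receptors, at -0.55 to 0.51 for Cd200r1, -0.38 to 0.75 for Pirb and -0.25 to 0.78 for Cd200r4. Changes within these bounds are not excluded with 4 mice per group. In WT mice and for the genotype by treatment interaction the counts at 155 days were also 0 of 8, beside 0% of all genes in each (549 and 437 at an unadjusted p under 0.05, and 3 by DESeq2 in each). For these 3 comparisons 0 of the 8 genes had an unadjusted p under 0.05 and DESeq2 called 0 of them.

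At 90 days 6 of the 8 genes passed the low count filter, and 0 of 6 were called in any of the 5 comparisons (genotype with and without OKN-007, OKN-007 in each genotype, and the interaction), with 0% of 18899 genes called by edgeR (531 to 1126 had an unadjusted p under 0.05, and DESeq2 called 0 to 15) and 0 of the 8 by DESeq2. An unadjusted p under 0.05 was reached by 2 genes in treated G93A against treated WT mice and by 1 gene in G93A OKN-007 against G93A untreated mice. Cd33 was the gene in both: it was at 5.86, 7.27, 10.1 and 8.34 CPM in G93A OKN-007 mice, 6.76, 4.72, 5.29 and 5.3 CPM in G93A untreated mice and 5.7, 5.2, 4.57 and 6.89 CPM in WT OKN-007 mice. The log2 differences were 0.50 in each comparison, with adjusted p of 0.837 against untreated G93A and 1 against treated WT mice. Lilrb4a was at 0.233, 0.395, 1.35 and 1.53 CPM in G93A OKN-007 mice and 0.407, 0.0754, 0.294 and 0.279 CPM in WT OKN-007 mice, a log2 difference of 1.75 with an adjusted p of 1. At 90 days too Lilrb4a passed the low count filter through its levels in the G93A mice, so its unadjusted p is no support. Replicates 15 and 16, which held the 2 highest levels of each gene in that group, also had higher caudal Hox levels (4.93 and 5.23) than replicates 13 and 14 (3.11 and 2.97) and higher microglia marker sums (609 and 600 against 519 and 505 CPM). With the caudal Hox level as a covariate the difference from treated WT mice was 0.56 for Cd33 (adjusted p = 0.882) and 1.97 for Lilrb4a (adjusted p = 0.863), and that of Cd33 from untreated G93A mice was 0.55 (adjusted p = 0.865).

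The change with genotype was larger at 155 than at 90 days for the receptors. When the 32 mice were fitted together over 19829 genes, 5 of the 8 genes had a larger G93A change at 155 days in untreated mice, beside 12.9% of all genes higher and 8.34% lower, and 6 higher and 2 lower in treated mice, beside 13% and 9.97%. For Lilrb4a the difference of log2 fold changes was 5.85 ± 0.844 (SE) in untreated and 4.52 ± 0.865 in treated mice, and for Sirpa it was 0.92 ± 0.12 in each. Lilrb4a passed the filter of this fit through its levels in the G93A mice, so its call is no support. Cd200 differed by -0.23 ± 0.144 (adjusted p = 0.271) in untreated and -0.48 ± 0.144 (adjusted p = 0.0143) in treated mice, and Cd47 by -0.13 (adjusted p = 0.281) and -0.23 (adjusted p = 0.0464). The treated call of Cd47 was lost in 27 of 37 alternatives, 24 of them among the 32 fits that left out 1 mouse. Cd200r1 differed by 3.39 and 3.21, but it held 14 to 21 counts per group at 90 days, was not tested at that age alone and entered this fit through its level in the G93A mice at 155 days, so its call is no support and its size is poorly fixed. For Cd200r4 the difference could not be estimated, since the 16 mice at 90 days held 0 or 1 count each, and its call in treated mice rested on 1 count in WT OKN-007 replicate 8 at 90 days (adjusted p = 1 without that mouse).

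Genes of the same pathways, taken from lists drawn up with earlier results of these data known, moved as follows at 155 days. Of all genes tested, 21.3% were called higher and 18.2% lower in untreated mice, and 23.3% and 18.2% in treated mice. Of 18 other inhibitory receptors 17 were tested, and 14 were higher and 0 lower in untreated G93A mice (median log2 fold change 2.73). The highest were Cd22, a lectin for sialic acid (5.95, from 0.197 ± 0.141 to 11.7 ± 4.1 CPM, SD, n = 4), Cd72 (4.79) and Fcgr2b, the inhibitory Fc receptor (4.53, from 2.51 ± 0.116 to 56.3 ± 20.3 CPM). The smallest called changes were Siglece (0.98) and Cd274 (1.08), which encodes PD-L1, a ligand that was counted in this list. In treated mice 15 were higher and 2 lower, the lower ones being Pecam1 (-0.30) and Ceacam1 (-0.41), which mark vessels as well as leukocytes. Clec12a, Pilra and Milr1, and in large part Cd22, passed the low count filter through their levels in the G93A mice. Their calls are no support, and the counts and medians of the list include them. As a description, most other receptors tested showed the direction of the 6 receptors above.

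Of 12 other ligands 8 were higher and 2 lower in untreated G93A mice (median 0.49), beside 21.3% and 18.2% of all genes. In treated mice 7 were higher and 2 lower (median 0.53), beside 23.3% and 18.2%. The class I MHC genes, whose products bind PirB, were among those that rose most, with B2m at 2.33 (from 103 ± 9.46 to 501 ± 145 CPM) and H2-K1 at 1.92, followed by Fn1, the gene of fibronectin, at 1.84. Cd24a, which encodes a ligand of Siglec receptors, fell by 0.75 on the log2 scale and Omg, which encodes a myelin inhibitor of axon growth, fell by 0.35. The other PirB ligand of myelin tested, Rtn4, had a log2 fold change of -0.00 (adjusted p = 0.998), and Mag was at 0.25 (adjusted p = 0.00973).

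Of 12 genes that carry the inhibitory signal 7 were higher and 0 lower in untreated mice (median 0.59), beside 21.3% and 18.2% of all genes. In treated mice 6 were higher and 0 lower (median 0.44), beside 23.3% and 18.2%. Ptpn6, the gene of the phosphatase SHP-1, had the largest change (3.04, from 8.1 ± 1.38 to 64.4 ± 18.8 CPM), before Dok1 (2.42) and Lyn, a kinase that phosphorylates the inhibitory motif (2.24). The smallest called changes were Fyn (0.25) and Dok2 (0.92). Ptpn11, which encodes the broadly expressed SHP-2, was at 271 ± 25 CPM in WT and 280 ± 26.3 CPM in G93A untreated mice (log2 fold change 0.09, adjusted p = 0.425). Csk, Grb2, Rasa1 and Dok3 did not pass the test either, with log2 fold changes of 0.06, -0.05, -0.17 and -0.09 in untreated mice, and Dok2 passed it in untreated but not in treated mice (0.56, adjusted p = 0.0968).

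Of 17 activating relatives and adaptors 14 were in the table and 8 passed the filter, of which 7 were higher in untreated and 6 in treated mice and 0 lower in either (medians 2.20 and 2.15), beside 21.3% and 23.3% of all genes called higher and 18.2% called lower in each. Lilrb4b had the largest change, followed by Tyrobp, the adaptor of CD200R4 and of other activating receptors (3.91, from 5.07 ± 1.19 to 73.8 ± 22.4 CPM), and Fcer1g (3.43). The smallest were Siglech (0.98) and Lilra5 (1.66). Lilrb4b and Lilra5 passed the low count filter through their levels in the G93A mice, so their calls are no support. Cd200r2, the remaining CD200R gene that could be tested, stood at 0.477 ± 0.35 CPM in WT and 0.358 ± 0.131 CPM in G93A untreated mice (adjusted p = 0.663), so the relatives of CD200R1 did not all move alike. The microglia markers had a median of 2.35 in untreated mice, near that of the other inhibitory receptors (2.73) and above those of the other ligands (0.49) and the signalling genes (0.59), and the part of cell number was not tested.

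**Figure D4:**
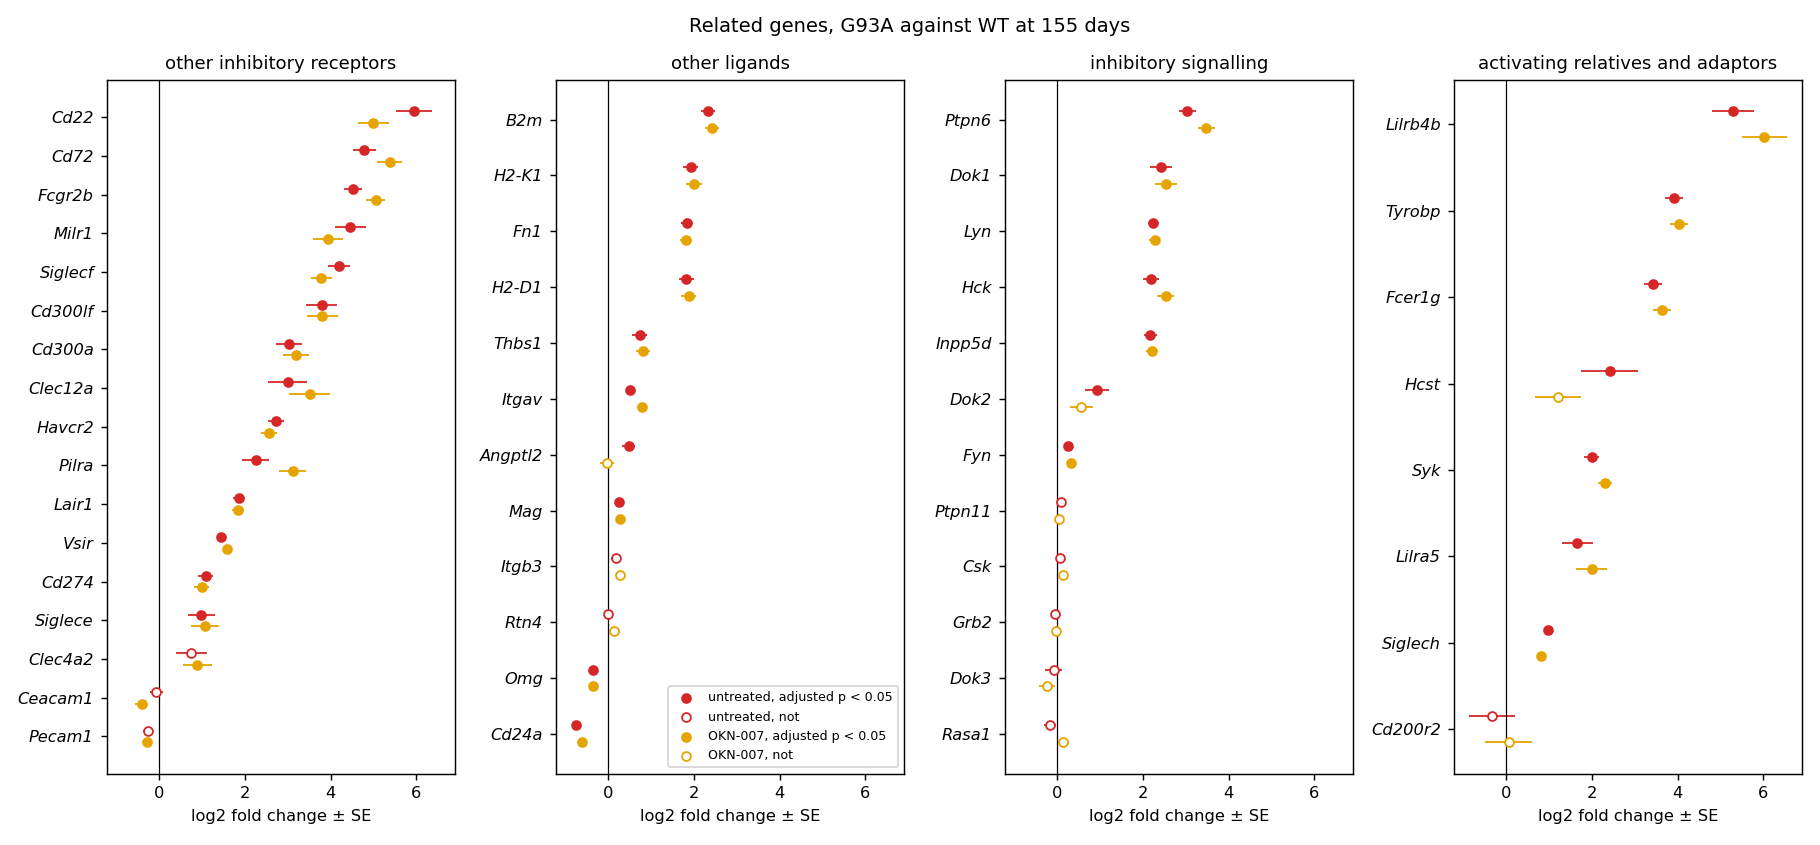
log2 fold change of G93A over WT at 155 days (horizontal axis, ± SE) for the tested genes of the 4 lists, in untreated (red) and OKN-007 treated mice (yellow), with filled points past an adjusted p of 0.05 and open points not. Most inhibitory receptors and adaptors lie to the right of 0 in both sets of mice. In untreated mice the inhibitory receptors run from 5.95 for Cd22 to -0.26 for Pecam1. In treated mice Pecam1 (-0.30) and Ceacam1 (-0.41) are called lower.

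The genes whose pattern over the 32 mice was most like each of the 8, by the root mean square difference of centred log2(CPM + 0.5) among 15525 genes with a mean of at least 1 CPM, were as follows. For Cd200 they were Scg2, Fam234b and Atp6v1d (differences of 0.094 to 0.099, where Cd200 itself varied by 0.21), and for Cd47 Rgmb, Ogfrl1 and Dner (0.066 to 0.081). For Sirpa they were Tapbp, Scpep1 and Cryzl2 (0.080 to 0.101, against its own 0.40). Cd200r1 was closest to Ctsb, Gusb and Itgb5, Pirb to Ecm1, Plin2 and B2m, and Cd33 to Apbb1ip, Abca1 and Hbegf. Lilrb4a was closest to Cybb, Tgm1 and Cd68 (0.368 to 0.403, against 2.08) and Cd200r4 to Igf1, Hmox1 and Grn (0.185 to 0.206, against 1.23). Cd200r1 and Cd200r4 lie under 1 CPM on average and could not themselves be named as a nearest gene. The added 0.5 CPM shrinks the differences of genes that are rare in WT mice. In untreated mice at 155 days Cd200r1 differed by 1.80 between genotypes on this scale and by 3.81 in the edgeR fit. The genes named for Cd200r1, Pirb, Lilrb4a and Cd200r4 depend on that value, and no other was tried here. The measure sets genes side by side over mice that share age, genotype and library and carries no test.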

How the data were processed

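The authors sequenced stranded mRNA libraries from about the same mass of spinal cord per mouse and deposited raw gene counts, not normalized, for 32 mice. The study's methods name Trimmomatic, STAR, HTSeq and GENCODE M10 on GRCm38, while the submitters' processing notes name FastQC, STAR, featureCounts and edgeR with GRCm39, and gene identifiers newer than GENCODE M21 are in the table, so the annotation and counting tool are unsettled and the strand setting is not given in the sources used here. Symbols, positions and exon lengths come from GENCODE M21, which paired 41218 of 42524 genes (96.9%) and may not be the authors' annotation.

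Counts were fitted per age, 16 mice as 4 groups, with edgeR 4.0.16 (limma 3.58.1, R 4.3.3): filterByExpr, TMM, glmQLFit and glmQLFTest. A gene was called at a Benjamini-Hochberg adjusted p under 0.05 over all genes tested. Differences between ages used all 32 mice. The procedure was tested on simulated data. Standard errors come from the F statistic. CPM used TMM factors over 32 mice. Alternatives were DESeq2 1.42.0, RLE factors, no filter, other sets of mice in the fit, a caudal Hox covariate, a replicate block, leaving out each mouse, other pseudocounts and other microglia markers. The labels name no batch.

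The 8 genes, the lists and the tests were chosen with earlier results of these data known. Named genes are the 8, the 3 genes most like each in pattern, and of each related list the called genes with the 3 largest and 2 smallest changes in untreated mice at 155 days. Pecam1, Ceacam1, Clec12a, Pilra, Milr1, Rtn4, Mag, Ptpn11, Csk, Grb2, Rasa1, Dok3, Cd200r2, Ms4a7, Pf4, Cd163, Ccr2, Mrc1 and Cd8a were added after their values were seen.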

Additional observations from a re-analysis of the deposited data

Results flagged for a closer look

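Of the 64 sets made by 8 genes and 8 groups of 4 mice, 58 held a mouse with more than 3 counts and were searched for a mouse far from the others, by Dixon's test at 95%. Chance flags about 1 in 20 such sets, and 2 were flagged. Cd47 was at 66.9 CPM in WT untreated replicate 2 at 155 days, where the other 3 mice lay at 81.5 to 84.2 CPM. Cd33 was at 32.3 CPM in G93A OKN-007 replicate 13 at 155 days, where the others lay at 24.7 to 24.9 CPM.

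The G93A change differed between 155 and 90 days for several genes (test of the difference in edgeR, adjusted p under 0.05). In untreated mice the difference of log2 fold changes was 5.85 for Lilrb4a, 3.39 for Cd200r1, 2.24 for Pirb, 1.85 for Cd33 and 0.92 for Sirpa. In OKN-007 treated mice it was 4.52 for Lilrb4a, 3.27 for Pirb, 3.21 for Cd200r1, 1.88 for Cd33, 0.92 for Sirpa, -0.48 for Cd200 and -0.23 for Cd47. The Cd47 difference lost its call in 24 of the 32 fits that left out 1 mouse, with RLE factors, without the low count filter and with the replicate block. Cd200r1 held 14 to 21 counts per group at 90 days and was not tested at that age alone, so its difference is poorly fixed in size. Cd200r1 and Lilrb4a entered this fit through their levels in the G93A mice, so their calls are no support. The fitted 11.21 for Cd200r4 in treated mice rests on a single count at 90 days and is no measure of size.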

How the results depend on the processing

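Across the alternatives run (DESeq2, RLE factors, no low count filter, a fit of the compared groups alone, a joint fit of all 32 mice, the caudal Hox covariate, the replicate block and leaving out each mouse) no called log2 fold change of the 8 genes changed sign, and each count of called genes stayed within 1.5 times its value. At 155 days the count of 8 became 7 without the filter, 7 with only the compared groups and 6 with the Hox covariate in untreated mice, and 7 without the filter and 7 with the covariate in treated mice, and leaving out a mouse gave 7 to 8 in each. The genes that lost their call were Cd47 in all of these and Cd200 with the covariate in untreated mice. The receptors kept theirs, with an adjusted p of at most 0.00012 at 155 days. The caudal Hox level did not overlap between the genotypes at that age, so that covariate cannot separate position from genotype. For the difference between ages DESeq2 called 6 genes in untreated mice in place of 5, adding Cd200r4, and RLE factors and no filter called 7 in treated mice in place of 8, losing Cd47, and leaving out a mouse gave 5 in untreated and 7 to 8 in treated mice. Comparisons with 0 called genes had 0 under each alternative.

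Replicate numbers recur across ages, and 2 of 16 pairs of same-numbered mice had a correlation over 0.1 (range -0.219 to 0.135), so the numbers do not pair the mice. With the replicate block the count was 5 in untreated and 7 in treated mice, where Cd47 was no longer called. Within an age no number is shared between groups. Depth limits the rare receptors: Cd200r1 and Cd200r4 held too few counts at 90 days to be tested. CPM from raw totals moved no group mean by more than its SD.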
